A study of Mus musculus with 6 samples.

Results

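The proteasome is the large protease that degrades ubiquitin-tagged proteins, and its subunit genes were followed here in RNA-Seq of mouse liver. The genes were taken by name, as those whose symbol joins Psma, Psmb, Psmc, Psmd, Psme, Psmf or Psmg to a number, without pseudogenes and listed once for every mouse. This gave 45 of the 47256 gene names so listed, and 44 of them were among the 18619 genes tested. The remaining one, Psmb11, encodes the thymus subunit and was listed at 0 in all 6 mice. A further 5 subunit genes, Psmb6, Psmb8, Psmb9, Psmd10 and Psmg1, are listed at more than one locus and are described separately below. One name, Psmc3ip, fits the pattern but encodes a cofactor of meiotic recombination rather than a subunit. Of 5 pseudogene names, 4 were listed at 0 in every mouse and Psmb7-ps2 reached an FPKM of 0.132.

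Livers came from 3 C57BL/6 laboratory mice, an inbred strain, and from 3 wild mice (Mus musculus), with one library for each animal. The laboratory mice were adult males bought from a supplier and killed on arrival. The wild mice were adults trapped at a pair of sites and then kept for some months under standard husbandry, and they comprised a male (wild mouse 1) and females (wild mice 2 and 3). RNA was taken from frozen, unfixed tissue. Origin and sex therefore differed together in part, and strain, husbandry and sampling could not be told apart. For fixed tissue of the same animals, the time from preparation to sampling was longer in every laboratory mouse than in every wild mouse. How long the frozen tissue was stored is not stated. The comparison asks how laboratory and wild livers differ in expression.

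The 26S proteasome joins a barrel, the 20S core particle, to a cap, the 19S regulatory particle. The core stacks rings of alpha subunits, which gate entry, around rings of beta subunits, of which Psmb5, Psmb6 and Psmb7 carry the proteolytic sites. The cap holds a ring of ATPases, the Psmc subunits, that unfolds substrates, and non-ATPases, the Psmd subunits, that bind and remove ubiquitin. Interferon and immune cells replace the catalytic subunits with Psmb8, Psmb9 and Psmb10, which form the immunoproteasome and favour peptides for antigen presentation.

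Expression was deposited as FPKM, the fragments mapped to a gene per transcript length and library size, and as zFPKM, in which each mouse's mode is subtracted from log2 FPKM and the result divided by an SD fitted to that mouse. The fitted SD ranged from 2.51 to 3.11 in the laboratory group and from 2.69 to 3.12 in the wild group, and the mode from 0.491 to 2.12 and from 1.31 to 2.51. The depth of the libraries is unknown. Laboratory mouse 3 and wild mouse 1 had the highest mode of their group and stood apart on this scale, so counts are also given without both. Hepatocyte markers were abundant in every mouse, with a summed FPKM over 5 markers of 26677 to 36557 in the laboratory group against 15975 to 19328 in the wild group. This sum rests mostly on Apoa1 and Ttr, while for Tat, Pck1 and Hnf4a every wild mouse stood above every laboratory mouse. The same held for 43.7% of all tested genes. In bulk tissue, fewer cells of a type and less RNA per cell cannot be told apart.

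The constitutive subunits were expressed far more unevenly in laboratory than in wild livers. They are 30 genes, 13 of the core particle and 17 of the cap, whose proteins are built into one complex. Psmb6, listed at more than one locus, and Sem1, a cap subunit outside the name pattern, are not among them. In wild mice the most abundant subunit exceeded the least abundant in FPKM by 4.19-fold, 5.34-fold and 4.22-fold. In the laboratory mice the same ratio was 102-fold, 86.6-fold and 99.5-fold. The lowest subunit was Psmd13 in every laboratory mouse and Psmd14 in every wild mouse. The highest was Psmb3 in every laboratory mouse, Psmb4 in wild mice 1 and 2 and Psmb1 in wild mouse 3, the last 2 genes being named after their values were seen. The SD of log2 FPKM over the 30 genes was 1.41, 1.33 and 1.31 in laboratory livers against 0.572, 0.661 and 0.643 in wild livers. The groups did not overlap in this measure, from which any single factor on all genes of a mouse cancels, whereas the SD fitted to all genes overlapped between the groups. A bias that differs between genes does not cancel, and no other gene set was compared. Over these 30 genes, Spearman's rho of the log2(FPKM + 0.1) difference was -0.33 with transcript length and -0.43 with exon number. The SD over the 30 genes is given as a description, since the genes were chosen with earlier results known.

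The unevenness was seen within both particles. Over the 17 cap genes the SD of log2 FPKM was 1.15, 1.07 and 1.13 in laboratory livers against 0.355, 0.316 and 0.266 in wild livers. Over the 13 core genes it was 1.05, 0.920 and 1.01 in laboratory livers against 0.484, 0.510 and 0.533 in wild livers. The median core subunit exceeded the median cap subunit in FPKM by 4.54-fold, 3.93-fold and 2.94-fold in laboratory livers, and in wild livers by 1.84-fold, 2.01-fold and 1.94-fold. Core subunits were thus the more abundant class in all 6 livers, with the larger gap in the laboratory mice. Ordered by mean FPKM, Psmb5 stood at rank 4 of 30 in laboratory mice and rank 16 in wild mice. Psmd4, a ubiquitin receptor of the cap, stood at rank 6 and rank 21.

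**Figure D1:**
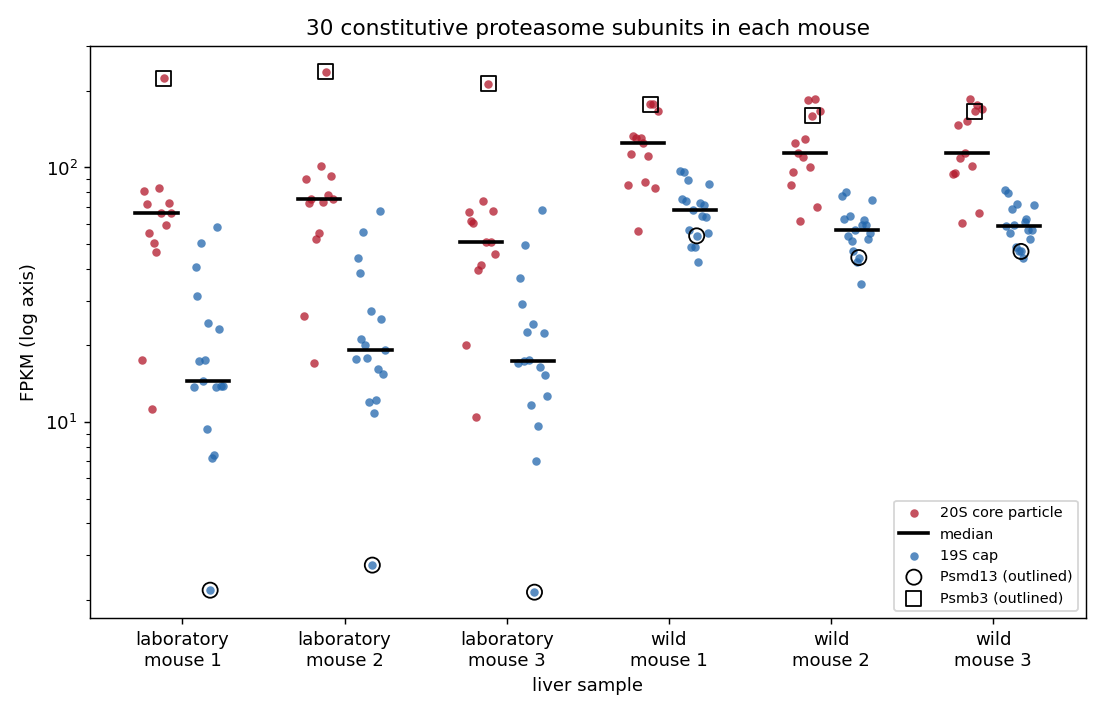
FPKM on a log axis of 13 core particle subunits (red) and 17 cap subunits (blue) in each of the 6 livers, with a black bar at each median. The laboratory mice spread over 86.6-fold to 102-fold, with Psmd13 alone at the bottom and Psmb3 alone at the top, and the wild mice over 4.19-fold to 5.34-fold.

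Psmd13, a non-ATPase of the cap, showed the largest fold difference of the family. Its FPKM was 2.18, 2.74 and 2.15 in laboratory livers against 53.9, 44.3 and 46.8 in wild livers. Every wild mouse thus stood above every laboratory mouse, by 20.5-fold in the means, and the zFPKM was lower in laboratory mice by 1.28 (SE 0.182, limma adjusted p = 2.8e-10, n = 3 mice per group). That p-value rests on the variance trend over all genes. The limma adjusted p was 0.027 without this trend and 0.0135 with sex as a covariate. With no filter on low values it was 0.29, and the call was lost. The gene lies on chromosome 7 at positions 140882394 to 140898642 of GRCm38.

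The opposite case was Psmb3, a structural beta subunit on chromosome 11 (97703434 to 97713500). Its FPKM was 224, 237 and 213 in laboratory livers against 177, 159 and 166 in wild livers. All laboratory mice stood above all wild mice, by 1.34-fold in the means, and the zFPKM was higher in laboratory mice by 0.40 (SE 0.112, limma adjusted p = 0.0043). This call was lost without laboratory mouse 1 (limma adjusted p = 0.055), with zFPKM centred on each mouse's median (0.11), with a trend on transcript length removed (0.053) and without the variance trend (0.25).

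To show what precedes the genes at either end and one that overlapped between groups (Psmb5), the 250 bases before the annotated start are printed from RefSeq (GRCm38.p6), 5′ to 3′ on the strand of the gene. Psmd13 lies at chr7:140882144-140882393 on the plus strand, Psmb3 at chr11:97703184-97703433 on the plus strand and Psmb5 at chr14:54617996-54618245 on the minus strand. Capitals mark matches, on either strand, to the letters of the motifs named after the sequences.
Psmd13: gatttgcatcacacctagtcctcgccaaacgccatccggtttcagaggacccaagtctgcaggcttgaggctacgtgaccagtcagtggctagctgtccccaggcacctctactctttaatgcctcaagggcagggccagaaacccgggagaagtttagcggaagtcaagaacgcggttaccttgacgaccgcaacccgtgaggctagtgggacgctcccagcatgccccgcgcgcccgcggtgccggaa
Psmb3: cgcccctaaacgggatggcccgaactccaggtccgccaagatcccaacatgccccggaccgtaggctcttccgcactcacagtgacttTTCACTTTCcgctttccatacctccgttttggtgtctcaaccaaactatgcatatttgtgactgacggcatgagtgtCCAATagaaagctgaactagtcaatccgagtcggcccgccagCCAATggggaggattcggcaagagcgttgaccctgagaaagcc
Psmb5: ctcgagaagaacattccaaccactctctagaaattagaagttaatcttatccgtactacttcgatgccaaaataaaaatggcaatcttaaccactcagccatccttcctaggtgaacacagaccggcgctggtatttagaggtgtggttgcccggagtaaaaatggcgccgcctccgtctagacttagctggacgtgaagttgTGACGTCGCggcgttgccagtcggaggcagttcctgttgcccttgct

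The letters searched for on both strands were TGACNNNGC (the core of the antioxidant response element), the CCAAT box, the GC box with the letters GGGCGG, GAAANNGAA (the core of the interferon response repeat) and TTCNNNGAA (a gamma interferon activation core). Of the 45 genes, 37 had a promoter in the table of 27025. TGACNNNGC occurred in 4 of 37, 10.8%, against 10.1% of all promoters, and the 4 were Psmb5, Psmc6, Psmd12 and Psmd9. The CCAAT box occurred in 13, 35.1%, against 34.5%, and the GC box in 19, 51.4%, against 32.9%. GAAANNGAA occurred in 3 (Psmb3, Psmd4 and Psmd9), 8.11%, against 7.16%, and TTCNNNGAA in none, against 7.18%. The printed window of Psmd13 holds none of the 5, that of Psmb3 holds the CCAAT box at a pair of positions and the interferon core once, and that of Psmb5 holds the antioxidant core. A match is only a match of letters, and no factor was measured.

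Over the whole family the differences leaned to lower values in laboratory mice. On the zFPKM scale, limma called 11 of 44 genes lower, where 7.28% of all tested genes were lower, and 2 of 44 higher, where 7.17% were higher. The 13 calls compare with 14.4% of all genes called in either direction. The median zFPKM difference, laboratory minus wild, was -0.22 over the 44 genes, 0.0050 over all tested genes and -0.05 over genes of a mean log2(FPKM + 0.1) above 2. On the scale of log2(FPKM + 0.1) the same fit called 33 of 44 lower, where 37.9% of all genes were lower, and 2 of 44 higher, Psmb3 and Psme2b, where 8.19% were higher. The whole table was itself shifted on that scale, by a median of -0.47 over all genes and -0.86 over the abundant ones, against -1.35 over the 44. After centring each mouse on its median, 19 were lower and 6 higher, against 18.6% and 28.7% of all genes.

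In FPKM itself, every wild mouse stood above every laboratory mouse for 34 of the 45 genes, against 43.7% of all tested genes. For 2, Psmb3 and Psme2b, every laboratory mouse stood above, against 12.1%, and the other 9 overlapped. Since the laboratory mice were all male, the wild male was also set against them alone, and it stood above all of them for 35 genes, where 51.7% of all tested genes did so. It stood below them for 3 and among them for 7.

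The number of calls depended on whether sex and a variance trend were in the model. With sex as a covariate, 3 of the 13 calls held, Psmd13, Psmb3 and Psmg4, where 7.38% of all genes were called. The lost calls kept their direction, with Psmd2 going from -0.71 to -0.65 and Psma8 from -1.53 to -1.08. With 1 wild male, this fit cannot tell an effect of sex from lost precision. Without the trend of variance on expression, Psmd13 alone held, where 4.27% of all genes were called. With laboratory mouse 3 and wild mouse 1 left out, all 13 held among 28 calls of 44, where 30.5% of all genes were called. Wild mouse 1 is the only wild male, so this fit set laboratory males against wild females. It cannot tell origin from sex.

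**Figure D2:**
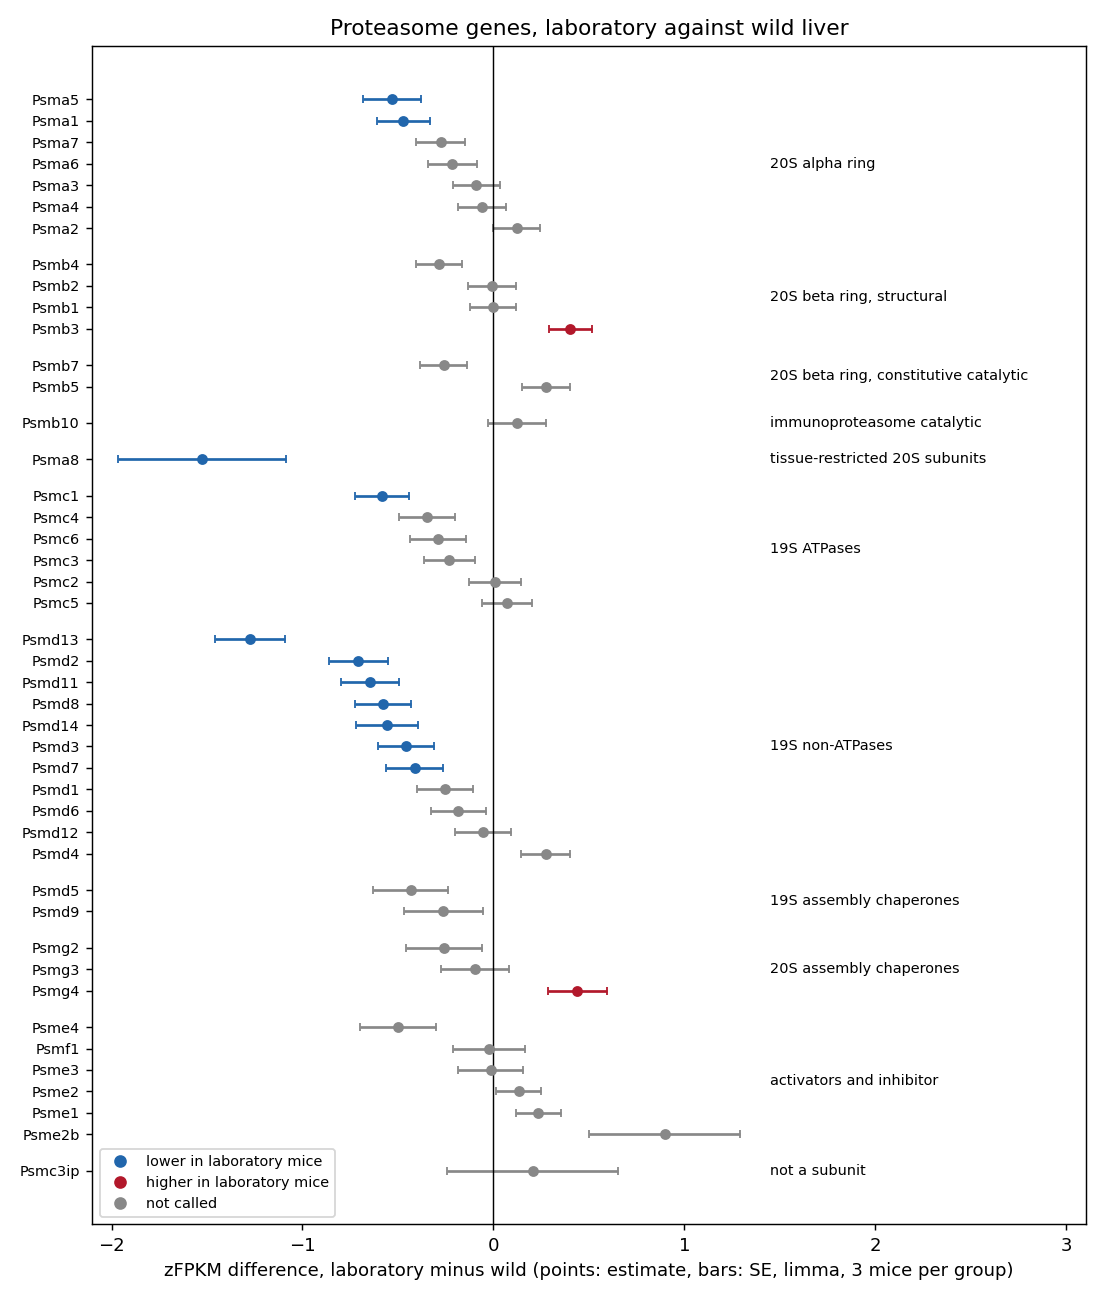
Difference in zFPKM between laboratory and wild livers for the 44 tested genes, grouped by role, with the SE of the limma fit as bars and 3 mice per group. The 11 blue points were lower in laboratory mice, with 7 of them among the 19S non-ATPases, and the 2 red points, Psmb3 and Psmg4, were higher. Of all tested genes, 7.28% were lower and 7.17% higher.

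In the alpha ring, 2 of 7 subunits were lower in laboratory mice in zFPKM and none higher, and all 7 had every wild mouse above every laboratory mouse in FPKM. Over all tested genes these shares were 7.28% lower, 7.17% higher and 43.7% with every wild mouse above. Psma5, the least abundant of the ring, had an FPKM of 11.2, 17.1 and 10.5 in laboratory livers against 56.4, 61.7 and 60.4 in wild livers. The zFPKM difference was -0.53 (SE 0.151, limma adjusted p = 0.0055). Psma1 had 17.5, 26.1 and 19.998 against 85.5, 85.3 and 94.6, with a zFPKM difference of -0.47 (SE 0.139, limma adjusted p = 0.0082). The wild means of these genes were 4.60-fold and 4.17-fold the laboratory means. Psma3, the most abundant in the mean over both groups, had 72.1, 72.6 and 61.4 against 133, 125 and 147, and its zFPKM difference of -0.09 did not pass the test (limma adjusted p = 0.72). Across the ring the fold in mean FPKM, wild over laboratory, ran from 1.28 to 4.60.

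Among the 4 structural beta subunits only Psmb3 was called, and higher in laboratory mice as described, where 7.17% of all genes were higher. Psmb2 had 66.0, 72.9 and 51.0 in laboratory livers against 111, 100.5 and 101 in wild livers, with a zFPKM difference of -0.01 that did not pass the test (limma adjusted p = 0.98). In this class FPKM groups were apart with the wild mice above for 2 genes, with the laboratory mice above for 1, and overlapped for 1. Over all tested genes, wild mice were above for 43.7% and laboratory mice for 12.1%.

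The ATPases of the cap were lower in FPKM in every laboratory mouse for 6 of 6 genes, against 43.7% of all tested genes. In zFPKM 1 was called, and lower, against 7.28%. That gene, Psmc1, helps to open the gate of the core, and had 13.8, 17.7 and 17.1 in laboratory livers against 97.1, 77.4 and 81.6 in wild livers. The 5.28-fold gap in the means corresponded to a zFPKM difference of -0.58 (SE 0.143, limma adjusted p = 0.00084). Psmc5, the most abundant, had 50.5, 55.9 and 49.4 against 89.6, 64.3 and 68.6, and did not pass (zFPKM difference 0.07, limma adjusted p = 0.79). Psmc6, the least abundant, had 14.5, 20.1 and 22.6 against 57.02, 51.3 and 59.6, and did not pass (zFPKM difference -0.29, limma adjusted p = 0.18). On the log2 scale all 6 were lower in laboratory mice, and after centring each mouse on its median 3 were, against 37.9% and 18.6% of all genes.

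The non-ATPases held most of the calls, with 7 of 11 genes called, all lower in laboratory mice, where 7.28% of all genes were lower. The 11 are the Psmd genes of the cap. Sem1, a cap subunit outside the name pattern, was called higher and is described with the partners below. Besides Psmd13, the largest was Psmd2, a scaffold that docks ubiquitin-like domains, with 7.39, 12.2 and 9.64 in laboratory livers against 72.5, 59.6 and 60.9 in wild livers. Its zFPKM difference was -0.71 (SE 0.154, limma adjusted p = 0.00011). Psmd11, which clamps cap to core and is known to limit 26S assembly, had 9.42, 11.97 and 11.6 against 67.9, 56.9 and 71.9. For this gene the zFPKM difference was -0.65 (SE 0.151, limma adjusted p = 0.00044). In both genes every laboratory mouse stood below every wild mouse, as in 43.7% of all tested genes.

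Psmd8, a lid subunit, had 13.9, 19.1 and 12.7 in laboratory livers against 86.4, 74.6 and 71.0 in wild livers, with a zFPKM difference of -0.58 (limma adjusted p = 0.0012). Psmd14, the deubiquitinase that strips ubiquitin chains from substrates, had 7.19, 10.8 and 7.04 against 42.5, 34.8 and 44.02. Its zFPKM difference was -0.56 (limma adjusted p = 0.0074). Its structural partner Psmd7 was also lower in each laboratory mouse. Psmd7 had 13.8, 15.5 and 15.3 against 55.1, 55.1 and 56.98, with a zFPKM difference of -0.41 (limma adjusted p = 0.042). Psmd3, another lid subunit, had 13.8, 16.1 and 16.5 against 64.7, 62.2 and 62.9, and differed by -0.46 (limma adjusted p = 0.018).

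Psmd4 went the other way from the class without passing the test. Its FPKM was 58.6, 67.5 and 68.3 in laboratory livers against 71.2, 59.5 and 56.8 in wild livers, so the groups overlapped (zFPKM difference 0.27, limma adjusted p = 0.16). The other 3, Psmd1, Psmd6 and Psmd12, had every wild mouse above in FPKM, as had 43.7% of all tested genes, and did not pass in zFPKM. Psmc1, Psmd2, Psmd8, Psmd11 and Psmd13 were called whichever single mouse was left out. Psma1, Psma5, Psmd3 and Psmd14 lost the call without wild mouse 2 or without wild mouse 3. Psmd7 lost it in 5 of the 6 omissions, holding only without wild mouse 1, where all remaining wild mice are female.

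The catalytic subunits of the core were not uniform. Psmb5, the chymotrypsin-like subunit, had an FPKM of 72.7, 93.0 and 67.2 in laboratory livers against 83.2, 69.8 and 66.2 in wild livers, and the groups overlapped (zFPKM difference 0.28, limma adjusted p = 0.14). Psmb7, the trypsin-like subunit, had 66.0, 75.1 and 45.7 against 166, 167 and 169, with all wild mice above, a fold of 2.69 and a zFPKM difference of -0.26 that did not pass the test (limma adjusted p = 0.15). Psmb10, the immune counterpart of Psmb7, had 25.8, 26.9 and 18.7 against 26.7, 31.9 and 31.7, and its groups overlapped (zFPKM difference 0.12, limma adjusted p = 0.68).

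The ratio of Psmb10 to Psmb7 did not overlap between the groups. As log2 of the FPKM ratio it was -1.35, -1.48 and -1.29 in laboratory livers against -2.63, -2.39 and -2.42 in wild livers. All laboratory mice stood above all wild mice, and the means differed by 1.11 on the log2 scale (laboratory -1.37, SD 0.0968; wild -2.48, SD 0.134). The two-sided exact permutation test gave p = 0.1, the smallest that 3 mice against 3 allow, and 0.3 after adjustment over 3 ratios. In FPKM the groups were apart for Psmb7 and overlapped for Psmb10.

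Psmb6, Psmb8 and Psmb9 are listed both on the main chromosomes and at alternate loci, and laboratory mouse 1 lists only an alternate copy, so their values are uncertain. On the main chromosomes, the FPKM of Psmb8 was 10.3 and 5.77 for laboratory mice 2 and 3 against 6.95, 8.63 and 18.3 for the wild mice. Psmb9 had 7.45 and 3.78 against 4.39, 7.74 and 6.34, and Psmb6 had 91.8 and 79.3 against 90.2, 88.6 and 87.2. At these copies the groups overlapped for all 3 genes. The log2 ratio of Psmb8 to Psmb5 was lower in laboratory mice by 0.54 (exact permutation p = 0.6, adjusted 0.7, 2 mice against 3, smallest possible p 0.1). That of Psmb9 to Psmb6 differed by -0.12 (exact permutation p = 0.7, adjusted 0.7).

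The copy decided what these ratios showed. At the alternate copy listed for all 6 mice, Psmb8 had 1.54, 2.09 and 0.793 in laboratory livers against 6.10, 10.2 and 13.2 in wild livers. Psmb9 had 2.37, 3.18 and 1.57 against 6.45, 13.3 and 12.8, while Psmb6 had 86.6, 91.8 and 79.1 against 86.0, 83.2 and 81.0. Here every wild mouse stood above every laboratory mouse for both immune subunits, as for 43.7% of all tested genes, but not for Psmb6. The log2 ratios then differed by -2.86 for Psmb8 to Psmb5 and by -2.22 for Psmb9 to Psmb6 (exact permutation p = 0.1 for each, the smallest possible). With all listed copies of the immune subunit summed, they differed by -1.25 and -1.21 (exact permutation p = 0.2 for each, laboratory mice 2 and 3 only). The sum was set against Psmb5 and against the main copy alone of Psmb6, and copies with equal values were each counted. Near-identical copies can share or split reads, and whether the alleles of the wild mice match an alternate copy better was not tested.

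**Figure D3:**
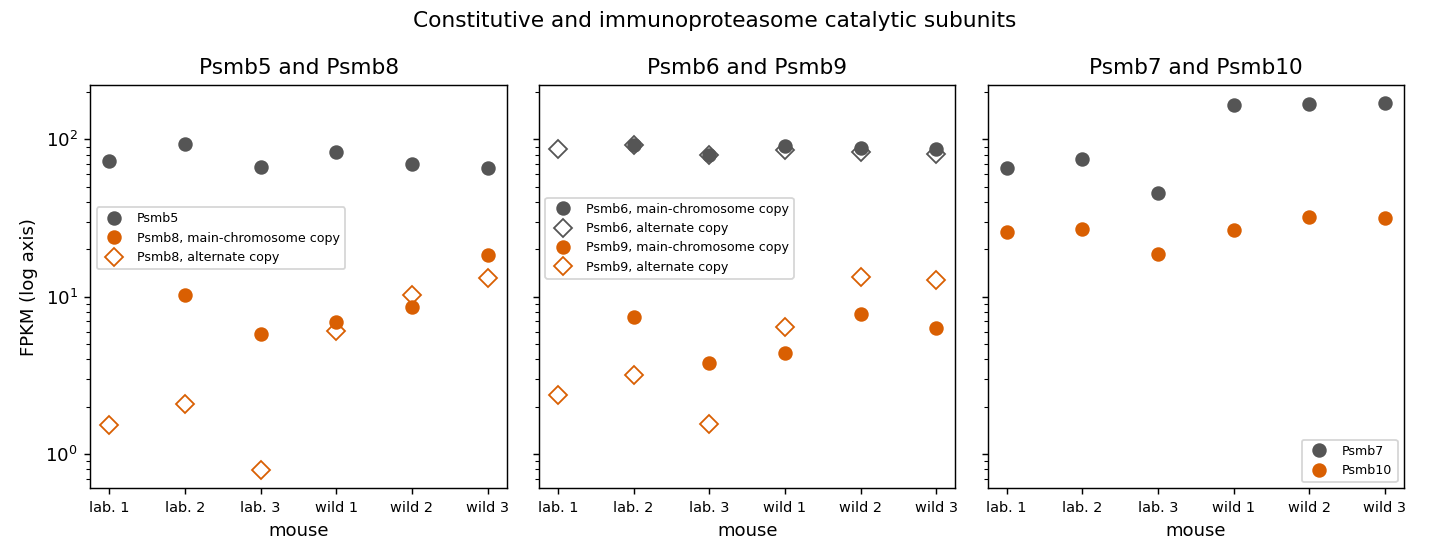
FPKM on a log axis of each constitutive catalytic subunit (grey) and its immunoproteasome counterpart (orange) in the 6 livers; filled circles are main-chromosome copies and open diamonds the alternate copy listed for every mouse. Psmb10 overlaps between groups while Psmb7 is lower in laboratory mice, and the alternate copies of Psmb8 and Psmb9 are lower in laboratory mice although their main copies overlap.

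Among the activators and the inhibitor none of 6 genes passed the test in zFPKM, where 14.4% of all genes did. Psme1 and Psme2, the interferon-inducible activator that forms a cap of its own, overlapped between the groups. Psme1 had 124, 135 and 101 in laboratory livers against 108, 112 and 153 in wild livers (zFPKM difference 0.23, limma adjusted p = 0.19). Psme2 had 103, 126 and 87.2 against 121, 140 and 138 (zFPKM difference 0.13, limma adjusted p = 0.54). The wild means were 1.04-fold and 1.26-fold the laboratory means.

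Psme4, Psme3 and Psmf1 were below every wild mouse in FPKM in all laboratory mice, as were 43.7% of all tested genes. Psme4, the nuclear activator of histone degradation, had 2.35, 3.96 and 4.07 in laboratory livers against 15.9, 13.5 and 15.4 in wild livers (zFPKM difference -0.50, limma adjusted p = 0.074). Psme3, the nuclear relative of Psme1, had 12.5, 11.3 and 10.1 against 24.4, 15.7 and 16.7 (zFPKM difference -0.02, limma adjusted p = 0.97). Psmf1, which encodes an inhibitor of the core, had 8.22, 7.87 and 6.14 against 13.4, 11.6 and 11.97 (zFPKM difference -0.02, limma adjusted p = 0.96).

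Psme2b, a single-exon copy of Psme2, had an FPKM of 1.03, 0.754 and 0.974 in laboratory livers against 0.225, 0.211 and 0.302 in wild livers. All laboratory mice stood above, but the zFPKM difference of 0.90 did not pass (SE 0.394, limma adjusted p = 0.11), and reads of its parent gene may fall on it, so the value is uncertain.

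For the cap, the assembly chaperone Psmd5 had 3.56, 3.95 and 3.89 in laboratory livers against 15.97, 13.7 and 14.3 in wild livers, and Psmd9 had 4.54, 3.17 and 3.74 against 10.6, 11.6 and 8.95. Neither passed in zFPKM, with differences of -0.43 and -0.26 (limma adjusted p = 0.13 and 0.46). In FPKM wild mice stood above for both, as for 43.7% of all tested genes. Psmd10, also a cap chaperone and listed at a pair of loci with nearly equal values, had 1.05 and 0.764 for laboratory mice 2 and 3 against 3.63, 3.54 and 3.21 for the wild mice at its main copy, and 0.741 in laboratory mouse 1 at the alternate one.

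For the core, 1 of 3 tested chaperones was called, where 14.4% of all genes were called in either direction. Psmg4 was called higher in laboratory mice in zFPKM by 0.44 (SE 0.153, limma adjusted p = 0.032), with 24.1, 30.4 and 38.2 against 17.1, 28.2 and 20.3, and its FPKM groups overlapped. The call was lost without laboratory mouse 1 or 2 or wild mouse 1 or 3. Psmg2 had 3.31, 5.18 and 5.33 against 14.4, 10.7 and 12.3 (zFPKM difference -0.26, limma adjusted p = 0.44), and Psmg3 did not pass either. Psmg1, at its main copy listed for all mice, had 4.85, 9.22 and 5.78 against 12.1, 8.97 and 9.54, with overlapping groups.

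Psma8, a testis paralog of the alpha ring, was listed at low levels. Its FPKM was listed at 0.0688, 0 and 0.224 in laboratory livers against 0.966, 1.70 and 1.54 in wild livers, so it was higher in each wild liver (zFPKM difference -1.53, SE 0.442, limma adjusted p = 0.0068). Since laboratory mouse 2 is listed at 0, the size of this difference is set by the floor of -3. At a floor of -5 it was -2.19 (limma adjusted p = 0.071) and at -20 it was -7.19 (0.47). The call was also lost with sex as a covariate and without laboratory mouse 2, wild mouse 2 or wild mouse 3. Psmc3ip, the gene that is no subunit, had 0.126, 0.315 and 0.205 against 0.162, 0.226 and 0.262 and did not pass (zFPKM difference 0.21, limma adjusted p = 0.83).

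Transcript length went along with the size of the difference. Over the 44 genes, Spearman's rho between the log2(FPKM + 0.1) difference and the length of the longest transcript was -0.45, and with its number of exons -0.41. Over all 16495 tested genes with a length the values were -0.16 and -0.13, and over the 5915 of them with a mean log2(FPKM + 0.1) above 2 they were -0.28 and -0.21. The genes share the same 6 libraries, so these are descriptions across genes with no test. The shortest transcripts were Psmg4 (555 bases) and Psmb3 (766 bases), both called higher in zFPKM, and Psme2b (837 bases). Their log2 differences were 0.50, 0.42 and 1.56. Next in length, Psmb2 (859 bases), Psmg3 (883 bases) and Psmb5 (899 bases) had log2 differences of -0.73, -0.96 and 0.08. Psme4, the longest at 6491 bases, had -2.12. Psmd13 (1989 bases) had -4.30 and is not among the longest. With a linear trend on log2 length removed from the zFPKM of each mouse, 12 of 44 genes were called lower and none higher, against 7.54% and 5.86% of all genes.

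**Figure D4:**
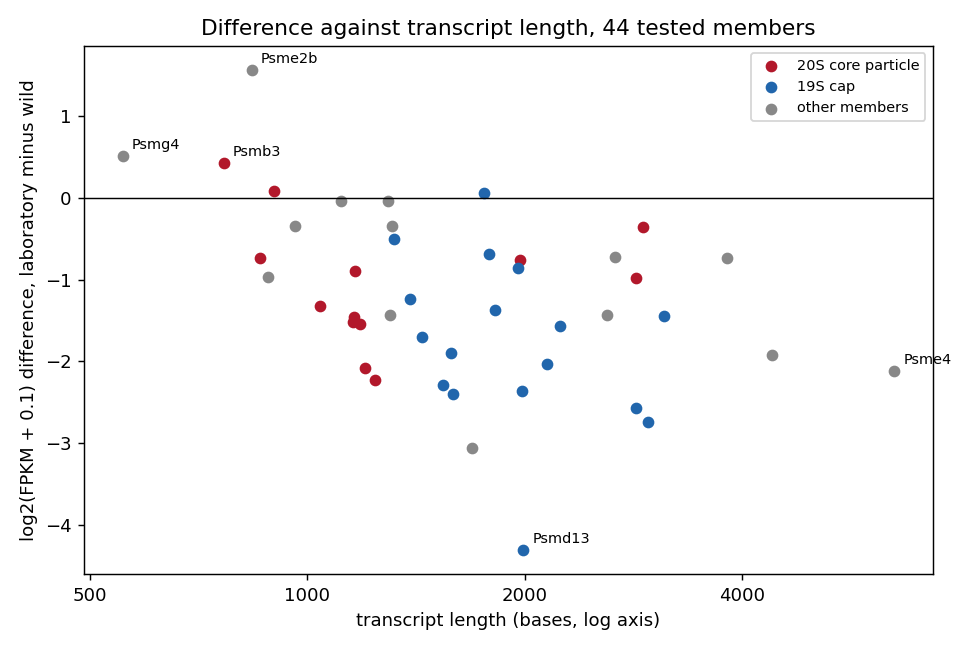
Difference in log2(FPKM + 0.1), laboratory minus wild, against the length of the longest annotated transcript (log axis) for the 44 tested genes; one point is one gene. Psmg4, Psmb3 and Psme2b, the shortest transcripts, lie above 0, and the next, Psmb2 (859 bases) and Psmg3 (883 bases), lie below it. Psme4, the longest, lies at -2.12, and Psmd13, at 1989 bases, lies below all others.

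Genes that work with the proteasome were counted in lists of their own, to be read against 7.28% of all genes lower and 7.17% higher. Of 14 tested partners and regulators, 2 were lower in laboratory mice and 1 higher. Ddi2, the protease known to activate Nfe2l1, the factor that drives transcription of the proteasome, had 2.40, 2.72 and 4.21 in laboratory livers against 32.0, 36.3 and 44.9 in wild livers (zFPKM difference -1.004, limma adjusted p = 1.6e-06). Zfand2a, a stress-induced cap-binding protein, had 0.406, 0.974 and 0.899 against 6.40, 6.05 and 4.66 (zFPKM difference -0.79, limma adjusted p = 0.031), a call that held without wild mouse 1 and was lost without any other single mouse. For both, every laboratory mouse stood below every wild mouse, as for 43.7% of all tested genes. Without wild mouse 1 the wild group is female only. Sem1, the smallest cap subunit, had 184, 252 and 213 against 135, 152 and 117 (zFPKM difference 0.49, limma adjusted p = 0.00031), so like Psmb3 it was higher in every laboratory mouse. Nfe2l1 itself had 11.1, 11.01 and 13.6 against 29.2, 41.6 and 41.8 and did not pass (zFPKM difference -0.31, limma adjusted p = 0.19).

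Of 13 tested genes of ubiquitin supply and delivery, 3 were lower and none higher, against 7.28% and 7.17% of all genes. Vcp, the segregase that hands unfolded substrates to the proteasome, had 17.1, 21.1 and 22.2 in laboratory livers against 116, 95.6 and 115 in wild livers (zFPKM difference -0.59, limma adjusted p = 0.00035). Ubqln1, a shuttle that carries ubiquitinated proteins, differed by -0.59 and Nploc4, a cofactor of Vcp, by -0.51 (limma adjusted p = 0.0022 and 0.047). The call of Nploc4 was lost whichever single mouse was left out, and that of Ubqln1 without wild mouse 3.

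Of 9 tested genes of MHC class I antigen processing, which uses peptides made by the proteasome, 2 were lower and 1 higher, against the same shares of all genes. Canx, an endoplasmic reticulum chaperone, had 7.49, 10.4 and 9.16 in laboratory livers against 69.6, 82.1 and 80.8 in wild livers (zFPKM difference -0.83, limma adjusted p = 2.2e-06). B2m, the light chain of class I molecules, was higher in zFPKM by 0.40 (limma adjusted p = 6.9e-05), with 4431, 4306 and 2635 against 2290, 2957 and 3260 in FPKM, so its FPKM groups overlapped. The call of B2m was lost on log2(FPKM + 0.1) (limma adjusted p = 0.32), on zFPKM centred on each mouse's median (0.57) and with quantile normalization, where the difference was 0.059 (0.66). Of the genes named from these lists, Zfand2a, Vcp, Ubqln1, Nploc4 and Canx lost the call with sex as a covariate, and Ddi2, Sem1 and B2m kept it. Without the variance trend Ddi2 alone of these 8 kept it, and Sem1 also lost it on zFPKM centred on each median.

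Because immune cells express the immunoproteasome, their markers are given beside it. Of 12 leukocyte markers 4 were higher in laboratory mice, among them Cd79b, S100a8 and S100a9, against 7.17% of all genes, and none was lower, against 7.28%. Over the list the FPKM summed to 14.5 to 18.9 in laboratory livers against 3.97 to 11.7 in wild livers, and S100a8 and S100a9, with mean FPKM of 4.42 and 6.05 against 0.823 and 1.24, made up much of the laboratory sum. Cd3e, a T cell marker of the list, had FPKM of 0.0753, 0.0753 and 0.286 in laboratory livers against 0.594, 0.414 and 1.18 in wild livers, with a zFPKM difference of -0.61 that did not pass (limma adjusted p = 0.40) and one of -1.76 on log2(FPKM + 0.1) that did (limma adjusted p = 0.020). Itgam and Itgax also had the higher mean in wild mice without passing the test, and these 3 genes were named after their values were seen. Cd3g and Cd3d, the other T cell genes of the list, had the higher mean FPKM in laboratory mice and were not called. Their means were 0.67 and 0.44 in laboratory livers against 0.50 and 0.32 in wild livers. Of 6 Kupffer cell markers none was called, with sums of 28.0 to 36.0 and 11.5 to 110. No marker of 4 each for sinusoidal endothelium and biliary epithelium was called, with sums of 17.6 to 27.3 against 13.9 to 47.8 and 3.81 to 9.56 against 1.65 to 4.59. Of the 5 hepatocyte markers 1, Tat, was lower in laboratory mice and 2, Apoa1 and Ttr, were higher. No marker was at 0 in all mice, and the part of these cells in the results was not tested.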

How the data were processed

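Liver RNA-Seq of 3 laboratory and 3 wild mice was analysed. The authors prepared stranded mRNA libraries, aligned the reads with kalign, computed FPKM with the Tuxedo tools and deposited FPKM per gene. The second deposited value, zFPKM, is a score in which log2 FPKM is centred on the mode of its mouse and divided by a fitted SD. The files used hold no counts, so the count test of the study was not repeated, and the absolute depth, and with it any counting interval, is unknown.

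Names listed once for every mouse were kept, and 24 with a failed estimate in any of 5 mice were left out; the list of laboratory mouse 1 has no column for failures. Tested genes had zFPKM above -3 in 3 or more of the 6 mice, values below that floor were raised to it, and the groups were compared by limma 3.58.1 in R 4.3.3 (lmFit, eBayes with trend, Benjamini-Hochberg adjustment over all tested genes, adjusted p under 0.05). Ratios of subunits were compared by two-sided exact permutation tests in Python 3.11.15 with scipy 1.17.1. These were planned over 6 mice, but Psmb6, Psmb8 and Psmb9 are not listed once, so their main-chromosome copies were used where listed. Positions are 1-based on GRCm38, and transcript lengths came from GENCODE for 88.6% of tested genes. The limma procedure was tested on simulated data. Nothing in the sources used says that samples of one group were other than single animals. In limma the variance of each gene is drawn toward a trend over all genes. The SE and p-values thus rest largely on that trend and less on the gene's own spread between these animals. Psmb1 and Psmb4, for example, both had an SE of 0.121 in zFPKM. Their SD of FPKM over the wild mice was 56.3 and 5.09.

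The genes, lists and tests were chosen with earlier results of these data known. Values per mouse are given for the catalytic subunits, the activators and inhibitor, the highest and lowest gene of each class by mean FPKM, and at most the 12 genes with the largest zFPKM difference among those called. For the other lists of the pathway they are given for at most the 4 with the largest difference among those called; Nfe2l1 was named in addition. Alternatives were other floors (-5 and -20), other filters, other scales and centrings, no variance trend, sex as a covariate, a length trend removed, and mice left out. The other copies of Psmb6, Psmb8 and Psmb9 were added after the data were seen. Values of some listed genes are not reported here.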

Additional observations from a re-analysis of the deposited data

How the results depend on the processing

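The count of calls depended strongly on the scale, the filter and the variance model. Against 2690 calls over all genes and 13 of 44 proteasome genes on zFPKM, a floor of -20 gave 1196 and 5, log2(FPKM + 1) gave 8242 and 35, log2(FPKM + 0.1) gave 8589 and 35, and log2(FPKM + 0.1) centred on each mouse's median gave 8817 and 25. Quantile normalization gave 7282 and 28, no variance trend 795 and 1, sex as a covariate 1374 and 3, and leaving out laboratory mouse 3 and wild mouse 1 together 5676 and 28. With zFPKM centred on each mouse's median, 5270 genes in all were called. With no filter on low values limma tested 47232 genes and called 23, of which 0 were proteasome genes. At an unadjusted limma p under 0.05 there were 19 of 45 proteasome genes and 3220 genes in all. With the filter these were 24 of 44 and 4782 of 18619. Leaving out each mouse in turn gave 1420 to 2556 calls over all genes and 6 to 15 proteasome genes, the lowest 2 counts of the latter being 7 without wild mouse 2 and 6 without wild mouse 3. The cause of these shifts was not tested. No called proteasome gene changed direction in any of these fits.

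Some genes that did not pass the test changed sign. On log2(FPKM + 1) the difference was -0.34 for Psmb10, -0.046 for Psme1, -0.34 for Psme2, -0.49 for Psmc5 and -0.0041 for Psmc3ip, and on log2(FPKM + 0.1) it was -0.35, -0.047, -0.34, -0.50 and -0.039. For Psme3, Psmf1 and Psmb2 it became 0.022, 0.0041 and 0.0102 on log2(FPKM + 0.1) centred on each mouse's median, 0.052, 0.051 and 0.013 with quantile normalization, 0.0196, 0.012 and 0.026 with zFPKM centred on each median, and 0.13, 0.096 and 0.075 without laboratory mouse 3 and wild mouse 1. With sex as a covariate it was 0.0145 for Psme3, 0.12 for Psmf1, 0.0145 for Psma3 and 0.066 for Psmb2, and with the length trend removed 0.011 for Psmf1. Leaving out each mouse in turn gave -0.034 to 0.47 for Psmc3ip, -0.12 to 0.14 for Psme3, -0.14 to 0.17 for Psmf1, -0.15 to 0.0020 for Psma3 and -0.073 to 0.11 for Psmb2. The log2 ratio of Psmb8 to Psmb5 differed by 0.22 in males alone, and that of Psmb9 to Psmb6 by 0.35 in males alone, by 0.025 without laboratory mouse 3 and wild mouse 1, and by -0.51 to 0.26 with each mouse left out in turn. The ratio of Psmb10 to Psmb7 kept its direction in all alternatives run.

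No paired analysis was made, because the laboratory and wild mice are separate animals with no pairing between them. The replicate numbers used here only follow the order of the samples. Precision rests on 3 mice per group, and depth is unknown.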
